A study of Mus musculus with 7 samples.

Results

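The 48 genes described here encode nucleolar factors and the RNA polymerase I machinery, the proteins that make ribosomes. They were chosen by name, as known factors of ribosome biogenesis that are often listed among MYC targets. Earlier results of these data were known when the choice was made. Of the 48 genes, 47 were found among the 34592 genes counted, and all 47 passed the filter on low counts that left 17389 genes to test. Noc2l was not analysed here.

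Ribosome biogenesis starts in the nucleolus, where RNA polymerase I copies the ribosomal DNA into a long precursor RNA. Small nucleolar ribonucleoproteins (snoRNPs) modify this precursor, the small subunit processome folds and cuts it, and assembly factors build the small and large subunits before they leave for the cytoplasm. MYC, the oncogene that drives this tumor model and marks Group 3 (G3) medulloblastoma (MB), is known to activate many of these genes, often through a CACGTG motif (E-box) near the transcription start.

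Per the methods of the study, RNA was sequenced from 7 mouse G3 MBs, all grown from the tumorsphere line # 19568, so that every tumor shares one origin. The source label of the control samples instead reads control G3 MB tumorspheres, and the samples are called tumors here. Cerebellar granule neuron progenitors carrying a Myc-IRES-GFP retrovirus (MSCV) had formed the tumor from which that line was made. The methods of the study name mice lacking both Trp53 and Cdkn2c (Trp53-/- and Cdkn2c-/-) as the source of such progenitors. Dissociated spheres were infected with a lentivirus carrying WDR11 under the EF1 promoter with copGFP (WDR11OE, 4 tumors) or, per the protocol, the empty vector (control, 3 tumors, for which the treatment label reads none), and were grown in the cortices of CD1-nu/nu mice until these became moribund. According to the study the cells were not sorted before transplantation, and tumor chunks can also hold host cells. The age and sex of the host mice are not given in the labels.

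Libraries held between 32116095 and 87141305 counts on genes. The files list a row for human WDR11, which counted 73, 92 and 102 reads in control tumors 1 to 3 and 185, 169, 99 and 57 reads in WDR11OE tumors 1 to 4. Scaled to the size of the libraries (CPM), these are 2.03, 2.19 and 3.12 CPM in control tumors 1 to 3 and 4.38, 2.11, 3.05 and 0.624 CPM in WDR11OE tumors 1 to 4. The groups overlap, and WDR11OE tumor 4 lies below all 3 control tumors (log2 fold change 0.047, SE 0.58, adjusted p 0.961; exact permutation p 0.8286, two-sided). How reads were assigned to that row is not given in the sources used here, and the row does not separate the groups as their labels do, so that WDR11OE below means the tumors labelled as such. Mouse Wdr11 was at 58.8, 58.3 and 59.2 CPM in control tumors 1 to 3 and 66.8, 60.96, 65.6 and 68.9 CPM in WDR11OE tumors 1 to 4, with a log2 fold change of 0.16 (SE 0.062, adjusted p 0.0910) and an exact permutation p of 0.0571. Library names of the 2 groups form separate series, and such a series and a condition cannot be told apart. The labels do not say whether tumors of a group came from separate infections, and p-values measure the spread between these tumors. In bulk tumors, fewer cells of a type and less RNA per cell cannot be told apart. The labels name a non-stranded kit and the methods stranded RNA sequencing, and the strand setting of the counting is not given in the sources used here.

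Promoters of 6 of the genes are printed with the E-box and an ETS motif marked where present. Whether these motifs relate to the level of Myc, which fell in the WDR11OE tumors, was not tested. They run from 250 bases before to 50 bases after the start site (RefSeq, GRCm38.p6), 5′ to 3′ on the strand of the gene. Capitals mark the E-box CACGTG and the ETS motif CCGGAAG, the latter on either strand. Mybbp1a (lower in the WDR11OE tumors), Wdr43 and Tsr1 (both higher) and Rrn3 (which did not pass the test) hold an E-box, and Nip7 and Gar1, the members with the highest log2 fold change and with the lowest one after Tcof1, hold no E-box in this window.
Mybbp1a, chr11:72441077-72441376, plus strand: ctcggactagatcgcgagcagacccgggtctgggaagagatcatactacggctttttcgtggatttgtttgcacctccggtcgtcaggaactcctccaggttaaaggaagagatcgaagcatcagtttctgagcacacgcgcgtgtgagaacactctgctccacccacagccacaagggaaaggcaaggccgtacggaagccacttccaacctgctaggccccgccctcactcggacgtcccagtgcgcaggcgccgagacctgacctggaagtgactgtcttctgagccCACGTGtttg
Wdr43, chr17:71615965-71616264, plus strand: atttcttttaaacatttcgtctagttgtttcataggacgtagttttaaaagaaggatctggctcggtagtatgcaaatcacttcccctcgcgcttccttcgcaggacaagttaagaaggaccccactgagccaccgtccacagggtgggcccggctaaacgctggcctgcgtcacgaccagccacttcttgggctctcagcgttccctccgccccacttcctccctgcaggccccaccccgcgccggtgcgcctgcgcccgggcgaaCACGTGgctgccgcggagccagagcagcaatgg
Tsr1, chr11:74897830-74898129, plus strand: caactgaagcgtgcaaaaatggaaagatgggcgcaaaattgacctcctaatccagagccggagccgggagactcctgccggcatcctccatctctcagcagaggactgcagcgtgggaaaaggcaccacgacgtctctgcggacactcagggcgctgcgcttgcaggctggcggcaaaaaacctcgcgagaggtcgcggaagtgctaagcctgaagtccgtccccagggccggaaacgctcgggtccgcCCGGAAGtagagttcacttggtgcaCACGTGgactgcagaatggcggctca
Rrn3, chr16:13780449-13780748, plus strand: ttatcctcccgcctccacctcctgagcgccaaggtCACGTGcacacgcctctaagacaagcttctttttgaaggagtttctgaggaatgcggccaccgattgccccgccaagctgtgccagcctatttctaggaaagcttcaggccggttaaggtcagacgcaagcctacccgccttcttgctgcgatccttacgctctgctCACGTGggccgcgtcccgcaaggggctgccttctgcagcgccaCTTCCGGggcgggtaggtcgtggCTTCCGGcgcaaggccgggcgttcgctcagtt
Nip7, chr8:107056627-107056926, plus strand: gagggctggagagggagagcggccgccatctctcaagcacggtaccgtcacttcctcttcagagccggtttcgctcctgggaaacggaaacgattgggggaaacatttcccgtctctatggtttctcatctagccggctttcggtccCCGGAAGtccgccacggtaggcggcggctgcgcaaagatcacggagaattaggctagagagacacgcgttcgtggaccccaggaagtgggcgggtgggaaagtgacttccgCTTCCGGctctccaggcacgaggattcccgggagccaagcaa
Gar1, chr3:129831347-129831646, minus strand: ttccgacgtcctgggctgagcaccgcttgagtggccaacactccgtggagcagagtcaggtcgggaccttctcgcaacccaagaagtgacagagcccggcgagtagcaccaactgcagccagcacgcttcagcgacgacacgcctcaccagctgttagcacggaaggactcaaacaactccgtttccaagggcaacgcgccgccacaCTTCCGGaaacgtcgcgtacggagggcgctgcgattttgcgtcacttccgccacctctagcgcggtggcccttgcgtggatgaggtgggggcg

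Ribosome biogenesis genes moved in both directions in the WDR11OE tumors, and more of them were higher than lower. In the quasi-likelihood test of edgeR, adjusted by Benjamini-Hochberg over all 17389 genes (adjusted p under 0.05, used throughout), 20 of the 47 genes were higher (42.6%), 6 were lower (12.8%) and 21 did not pass. Over all genes tested, 18.1% were higher and 15.8% were lower. The median log2 fold change of the 47 genes was 0.22, beside 0.085 for all genes tested. The changes were small. Tcof1, at -1.34, was the member that changed at least 2-fold, and no member rose 2-fold. Over all genes, 3.45% were at least 2-fold lower and 2.36% at least 2-fold higher, at an average log2 CPM above 0. In 22 members (46.8%) every WDR11OE tumor was above every control tumor and in 8 (17%) every WDR11OE tumor was below. The same held for 23.6% and 19.1% of all genes. The plot of fold changes by role shows a lower member in each of the 6 groups, beside higher ones.

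**Figure D1:**
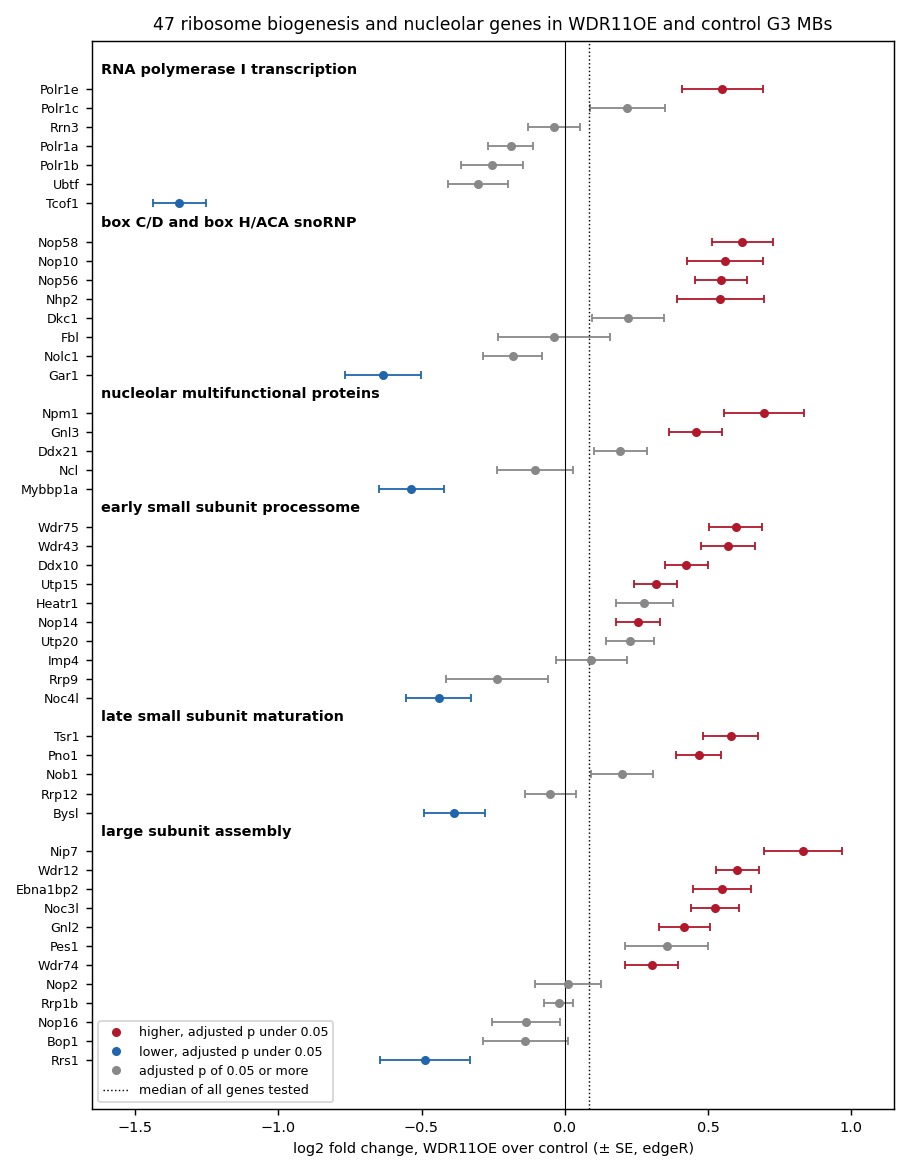
Log2 fold change of WDR11OE over control tumors (horizontal axis, points, with SE as bars) for the 47 genes, grouped by role, from edgeR's fit on 4 WDR11OE and 3 control tumors. Red points passed the test as higher (20), blue as lower (6), gray did not pass (21), the solid line is 0 and the dotted line is the median of all 17389 genes (0.085). Tcof1 stands apart at -1.34, and all other members lie between -0.63 and 0.83.

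Myc itself was at 1108, 821 and 812 CPM in control tumors 1 to 3 and 389.6, 431, 278 and 288 CPM in WDR11OE tumors 1 to 4. Every WDR11OE tumor was below every control tumor (log2 fold change -1.40, SE 0.20, adjusted p 0.00227; exact permutation p 0.0286, the smallest that 35 splits of these tumors allow). A retroviral and an endogenous Myc transcript cannot be told apart in this row. The summed level of the 47 genes was 7150, 7064 and 8768 CPM in the control tumors and 9345, 9443, 8832 and 8568 CPM in the WDR11OE tumors, so that WDR11OE tumor 4 lay below control tumor 3. Npm1 alone made up 17.4% to 19.0% of this sum in the control tumors and 24.7% to 26.2% in the WDR11OE tumors. Without Npm1 the sums were 5815, 5836 and 7106 CPM against 7013, 7079, 6652 and 6327 CPM, and the groups overlapped more widely. These sums carry no test.

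**Figure D2:**
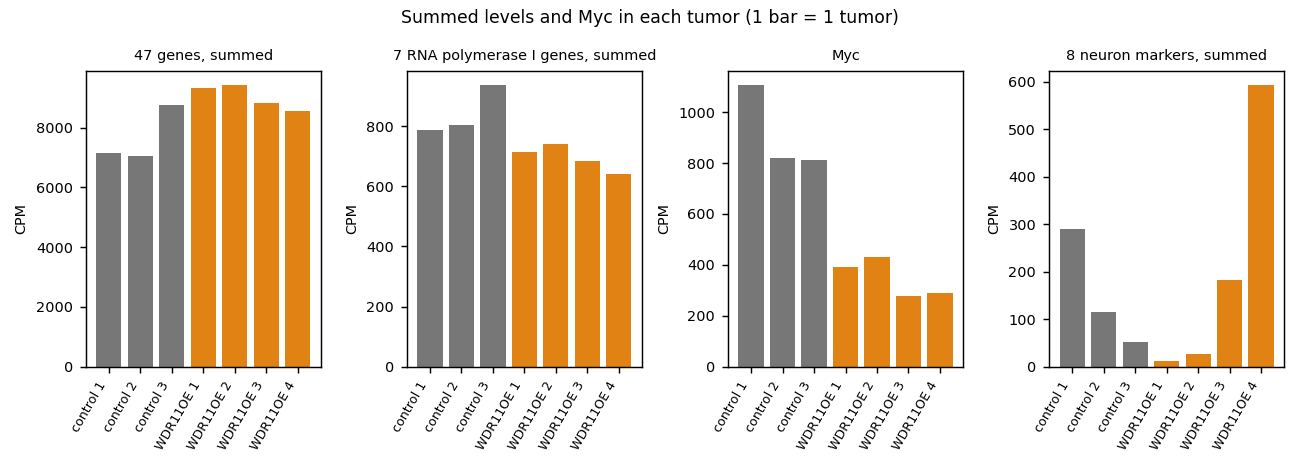
CPM (vertical axes, from 0) in each of the 7 tumors (1 bar a tumor, gray for control and orange for WDR11OE) of the 47 genes summed, of the 7 RNA polymerase I genes summed, of Myc, and of 8 neuron markers summed. Myc and the RNA polymerase I sum are lower in all 4 WDR11OE tumors than in any control tumor, the sum of the 47 genes overlaps between the groups, and the neuron markers range from 11.4 to 593 CPM within the WDR11OE tumors.

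Among the 7 genes of RNA polymerase I transcription, Tcof1 fell and Polr1e rose, while the polymerase's large subunits did not pass the test. Tcof1 (chromosome 18 in NCBIM37, the build of the files) encodes treacle, a nucleolar protein that joins RNA polymerase I transcription to the modification of the precursor RNA. It was at 135, 149.7 and 148 CPM in control tumors 1 to 3 and 51.5, 57.5, 64.7 and 53.1 CPM in WDR11OE tumors 1 to 4. The highest WDR11OE tumor was below the lowest control tumor by more than a factor of 2 (log2 fold change -1.34, SE 0.093, adjusted p 0.000857). Tcof1 was also past the test in all 20 alternative fits, with log2 fold changes between -1.41 and -0.96. Polr1e (chr4:45031455-45049437, plus strand in NCBIM37, as are the gene coordinates below) encodes the PAF53 subunit of the polymerase and had the lowest level per kb of the 47. It was at 20.1, 19.7 and 24.7 CPM in control tumors 1 to 3 and 36.3, 34.1, 26.7 and 28.6 CPM in WDR11OE tumors 1 to 4, higher in every WDR11OE tumor (log2 fold change 0.55, SE 0.14, adjusted p 0.0219). Polr1e overlaps Fbxo10 on the opposite strand, and that gene changed the other way, by -0.60. Polr1c (chr17:46380869-46385003, minus strand), a subunit shared with RNA polymerase III, had the highest level per kb of this group over the 7 tumors. Its values were 62.4, 62.4 and 84.6 CPM in control tumors 1 to 3 and 86.9, 87.8, 76.2 and 73.8 CPM in WDR11OE tumors 1 to 4, and the groups overlapped (log2 fold change 0.22, SE 0.13, adjusted p 0.246).

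The subunits of the catalytic core had mean levels slightly below those of the controls and did not pass the test. Polr1a, the largest subunit, was at 192 ± 15.5 CPM in the control tumors (SD, n = 3) and 168 ± 8.55 CPM in the WDR11OE tumors (SD, n = 4), and its log2 fold change of -0.19 (SE 0.079, adjusted p 0.108) did not pass although the groups do not overlap. Likewise, Ubtf, the factor that binds and opens the ribosomal DNA, was below the controls in every WDR11OE tumor at -0.30 (SE 0.10, adjusted p 0.0612). The second subunit Polr1b was at -0.26 (SE 0.11, adjusted p 0.111), and its groups overlapped. Rrn3, which recruits the polymerase to its promoter, was at -0.039 (SE 0.091, adjusted p 0.782). With each tumor's GC trend removed, Ubtf was at -0.032 (adjusted p 0.856), Polr1a at -0.12 (adjusted p 0.303) and Polr1b at -0.23 (adjusted p 0.13). Without that correction, the median log2 fold change over these 7 genes was -0.19. Their summed level was 788, 806 and 939 CPM in the control tumors and 716, 742, 684 and 642 CPM in the WDR11OE tumors, which do not overlap. Without Tcof1 the sums were 654, 656 and 791 CPM against 664, 684, 619 and 589 CPM, and the groups overlapped, so that the separation of the sum rests on Tcof1.

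In the snoRNPs, some core proteins rose, Gar1 fell, and the catalytic proteins Fbl and Dkc1 did not pass the test. Box C/D snoRNPs place methyl groups on the precursor RNA, and their core proteins Nop56 and Nop58 rose. Nop58 (chr1:59741853-59768968, plus strand), which had both the highest fold change and the highest level of this group, was at 224, 190.2 and 247 CPM in control tumors 1 to 3 and 364, 349, 325 and 315 CPM in WDR11OE tumors 1 to 4. All WDR11OE tumors were above all control tumors (log2 fold change 0.62, SE 0.11, adjusted p 0.00477). Nop56 was at 280.0 ± 29.3 CPM in the control tumors (SD, n = 3) and 408 ± 13.2 CPM in the WDR11OE tumors (SD, n = 4), a log2 fold change of 0.54 (SE 0.090, adjusted p 0.00407), and was past the test in all 20 alternatives. Idh3b, which overlaps Nop56 on the opposite strand, was also higher, at 0.33 (adjusted p 0.0189). Fbl, the methyltransferase of the same particle, was at 93.1 ± 24.8 CPM in the control tumors (SD, n = 3) and 90.7 ± 14.9 CPM in the WDR11OE tumors (SD, n = 4) (log2 fold change -0.038, SE 0.20, adjusted p 0.907). Fbl is uncertain, because its exons match those of the pseudogene Gm5812 over 1159 bases at 97.2% identity and an exon of Tulp4 over 1060 bases at 96.9%, and Gm5812 alone counted 91.4 CPM in the control tumors on average.

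Box H/ACA snoRNPs convert uridine to pseudouridine and hold Dkc1, the catalytic subunit, with Nhp2, Nop10 and Gar1. Gar1 (chr3:129527830-129534314, minus strand) fell and was at 24.9, 25.5 and 31.3 CPM in control tumors 1 to 3 and 18.2, 19.95, 16.97 and 15.03 CPM in WDR11OE tumors 1 to 4. Its groups did not overlap (log2 fold change -0.63, SE 0.13, adjusted p 0.00959), and it was past the test in all 20 alternatives. Nop10 and Nhp2 rose, at 0.56 (SE 0.13, adjusted p 0.0165) and 0.54 (SE 0.15, adjusted p 0.0292). Dkc1 was at 166 ± 24.2 CPM in the control tumors (SD, n = 3) and 193 ± 20.2 CPM in the WDR11OE tumors (SD, n = 4) and did not pass the test (log2 fold change 0.22, SE 0.12, adjusted p 0.221). Nolc1, the chaperone of both kinds of snoRNP, did not pass either, at -0.18 (SE 0.10, adjusted p 0.223). The difference between Gar1 and its partners was not tested as such.

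Introns of 7 of the 47 genes hold annotated snoRNA genes, 20 in all, of which 17 have a row and 15 passed the filter on low counts. Of these 15, 9 were higher in the WDR11OE tumors and 0 were lower, beside 18.1% and 15.8% of all genes tested. Their median log2 fold change was 0.97, but at mean levels of 0.326 to 2.51 CPM in the control tumors. Snord19 inside Gnl3 changed most, at 1.54 with an adjusted p of 0.00224, and Snora75 inside Ncl was at 1.24 with an adjusted p of 0.00286, while Ncl itself did not pass. Reads of the snoRNA and of the unspliced host transcript cannot be told apart in these rows, and some snoRNAs are annotated more than once at one place.

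Of the nucleolar proteins with several functions, Npm1 and Gnl3 rose, Mybbp1a fell, and Ncl and Ddx21 did not pass the test. Npm1 (chr11:33052287-33063206, minus strand), nucleophosmin, a histone and ribosome chaperone, was the most abundant of the 47 genes, at 528 CPM per kb in the control tumors and 855 CPM per kb in the WDR11OE tumors. Its values were 1334, 1228 and 1662 CPM in control tumors 1 to 3 and 2332, 2364, 2181 and 2240.5 CPM in WDR11OE tumors 1 to 4. The WDR11OE tumors lay within 2181 to 2364 CPM, all above the highest control tumor at 1662 CPM (log2 fold change 0.69, SE 0.14, adjusted p 0.00833). Counts of 7 near-identical copies came to 2.58% of those of Npm1 in the control tumors. With each tumor's GC trend removed the log2 fold change of Npm1 was 0.33 and did not pass (adjusted p 0.138). Gnl3, the GTPase nucleostemin, rose and was at 145 ± 17.9 CPM in the control tumors (SD, n = 3) and 199 ± 6.67 CPM in the WDR11OE tumors (SD, n = 4), a log2 fold change of 0.46 (SE 0.093, adjusted p 0.00905). Mybbp1a (chr11:72254857-72265270, plus strand), which binds RNA polymerase I and MYB, was at 404, 447 and 543 CPM in control tumors 1 to 3 and 317, 333, 338 and 294 CPM in WDR11OE tumors 1 to 4. All 4 WDR11OE tumors were below the lowest control tumor (log2 fold change -0.54, SE 0.11, adjusted p 0.0109). Nucleolin, Ncl, the second most abundant gene at 138 CPM per kb in the control tumors and 128 CPM per kb in the WDR11OE tumors, differed by less than the spread between tumors (log2 fold change -0.10, SE 0.13, adjusted p 0.593), and the helicase Ddx21 was at 0.19 (SE 0.093, adjusted p 0.154).

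**Figure D3:**
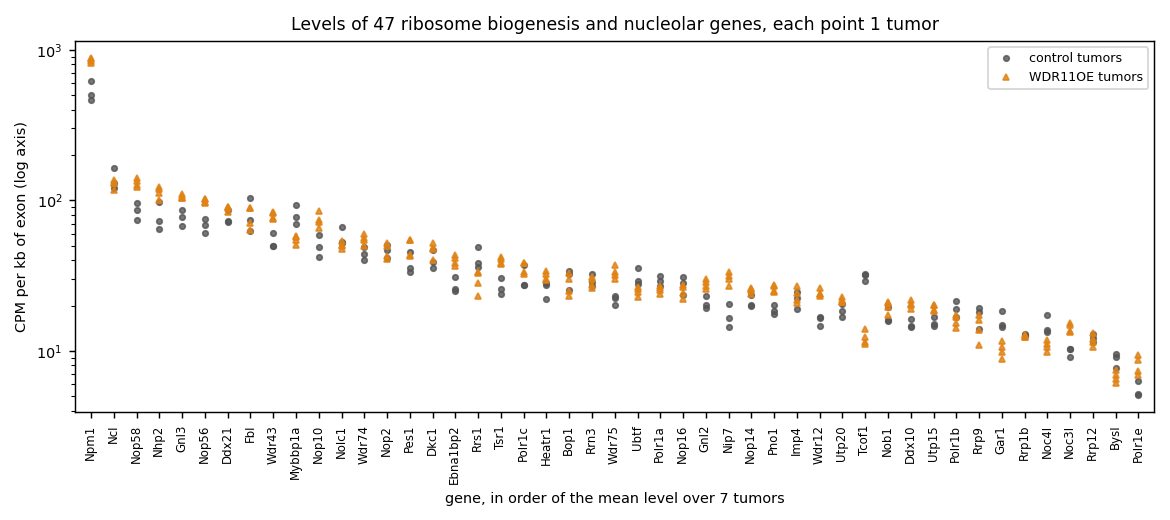
Level of each of the 47 genes in CPM per kb of exon (log axis), in the order of their mean over 7 tumors. Gray circles are the 3 control tumors and orange triangles the 4 WDR11OE tumors. Npm1 stands above all others, most genes lie between 10 and 100 CPM per kb, and Tcof1, Gar1 and Mybbp1a show orange triangles wholly below the gray circles.

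Levels differed far more between the genes than between the conditions. Mean levels over the 7 tumors ran from 6.97 CPM per kb (Polr1e) to 715 CPM per kb (Npm1), with a median of 28.3. Only Npm1, Ncl and Nop58 were above 100 CPM per kb, and Bysl and Polr1e were below 10 CPM per kb. In that order, Nop58 came before Nhp2 and Gnl3 with means of 111, 98.7 and 93.5 CPM per kb, and the ranges of these 3 genes over the tumors overlapped.

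The early small subunit processome, which forms around the nascent precursor with the U3 snoRNA, rose in 5 of its 10 members and fell in 1. Over all genes tested, 18.1% were higher and 15.8% lower. With each tumor's GC trend removed, 2 of these 10 members were higher and 0 lower, beside 13.4% and 14.1% of all genes in that fit. Wdr75 (chr1:45852011-45880464, plus strand), which with Wdr43, Utp15 and Heatr1 belongs to the subcomplex that also assists transcription of the ribosomal DNA, was at 106, 95.2 and 109 CPM in control tumors 1 to 3 and 176, 156, 151 and 143 CPM in WDR11OE tumors 1 to 4. The lowest WDR11OE tumor was above the highest control tumor (log2 fold change 0.60, SE 0.092, adjusted p 0.00322). Wdr43 (chr17:71965555-72008371, plus strand) had the highest level of this group, at 173, 171 and 209 CPM in control tumors 1 to 3 and 289, 283, 263 and 259 CPM in WDR11OE tumors 1 to 4. It was higher in each of the 4 WDR11OE tumors (log2 fold change 0.57, SE 0.095, adjusted p 0.00414), and both WD-repeat genes were past the test in all 20 alternatives. Utp15 rose by less, at 0.32 (SE 0.075, adjusted p 0.0158), and with the GC trend removed it was at 0.17 and did not pass (adjusted p 0.137). Heatr1 was above the controls in every WDR11OE tumor and did not pass, at 0.28 (SE 0.10, adjusted p 0.0713).

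Noc4l and Nop14, partners in the nuclear steps of small subunit assembly, had opposite calls in the fit as reported. With each tumor's GC trend removed neither passed, at -0.25 (adjusted p 0.152) and 0.22 (adjusted p 0.0564). The difference between these genes was not tested as such. Noc4l (chr5:111077437-111082436, minus strand) was at 33.2, 34.5 and 43.1 CPM in control tumors 1 to 3 and 27.8, 29.7, 24.6 and 26.7 CPM in WDR11OE tumors 1 to 4. The groups were close but did not overlap, the highest WDR11OE tumor being at 29.7 CPM and the lowest control tumor at 33.2 CPM (log2 fold change -0.44, SE 0.11, adjusted p 0.0226). Nop14 rose slightly, at 0.25 (SE 0.077, adjusted p 0.0395), and passed the test in 5 of 20 alternatives. The helicase Ddx10 rose at 0.42 (SE 0.074, adjusted p 0.00479) and was at 0.18 with the GC trend removed, where it did not pass (adjusted p 0.146). Utp20, Rrp9 and Imp4 did not pass, at 0.23, -0.24 and 0.092. For Utp20 the WDR11OE tumors were nevertheless all above the control tumors, and its adjusted p was 0.0706.

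In the late steps of small subunit maturation, Tsr1 and Pno1 rose and Bysl fell. Tsr1 (chr11:74711573-74722844, plus strand), a protein of the late precursor particle related to GTPases, was the highest both in fold change and in level per kb. It was at 92.1, 98.6 and 117 CPM in control tumors 1 to 3 and 161, 158, 148 and 146 CPM in WDR11OE tumors 1 to 4. The groups lay clearly apart (log2 fold change 0.58, SE 0.095, adjusted p 0.00398). Bysl (chr17:47736280-47748441, minus strand), bystin, which is needed for release of the small subunit from the nucleus, was at 29.6, 35.2 and 36.5 CPM in control tumors 1 to 3 and 26.7, 28.5, 24.9 and 23.4 CPM in WDR11OE tumors 1 to 4. Its groups lay just apart, at 28.5 CPM and 29.6 CPM for their nearest tumors (log2 fold change -0.39, SE 0.11, adjusted p 0.0282), and it overlaps Ccnd3 on the opposite strand, which was at -0.48 and did not pass (adjusted p 0.104). Pno1 rose, at 0.47 (SE 0.080, adjusted p 0.00449). Wdr92, which overlaps Pno1 on the opposite strand, was also higher, at 0.61. Nob1, the endonuclease that Pno1 holds in place and that makes the final end of the 18S RNA, did not pass at 0.20 (SE 0.11, adjusted p 0.200), nor did the export factor Rrp12 at -0.050 (SE 0.089, adjusted p 0.707).

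Large subunit assembly, the largest group, had 6 higher and 1 lower of 12 genes tested, beside 18.1% and 15.8% of all genes. With each tumor's GC trend removed, 6 of these 12 were higher and 0 lower, beside 13.4% and 14.1% of all genes in that fit. Nip7 (chr8:109580777-109584826, plus strand), a factor of early large subunit processing, showed the largest rise of all 47 genes. It was at 43.5, 49.98 and 62.3 CPM in control tumors 1 to 3 and 91.6, 102, 95.4 and 81.2 CPM in WDR11OE tumors 1 to 4. The lowest WDR11OE tumor stood well above the highest control tumor (log2 fold change 0.83, SE 0.14, adjusted p 0.00390). Wdr74 (chr19:8810329-8815113, plus strand), a factor that works with the ATPase Nvl, had the highest level per kb of this group. Its values were 53.1, 48.6 and 59.2 CPM in control tumors 1 to 3 and 71.6, 68.1, 59.5 and 65.2 CPM in WDR11OE tumors 1 to 4, and the groups lay apart by less than 1 CPM (log2 fold change 0.30, SE 0.094, adjusted p 0.0430). Rrs1 (chr1:9535489-9537535, plus strand), which brings the 5S particle into the large subunit, was at 74.4, 78.4 and 100.2 CPM in control tumors 1 to 3 and 67.4, 68.3, 57.5 and 47.4 CPM in WDR11OE tumors 1 to 4. It was lower in every WDR11OE tumor and passed the test narrowly (log2 fold change -0.49, SE 0.16, adjusted p 0.0491), as it did in 7 of 20 alternatives.

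Pes1, Bop1 and Wdr12 form the PeBoW complex of large subunit processing, and of these Wdr12 alone passed the test. Wdr12 was at 77.9 ± 5.91 CPM in the control tumors (SD, n = 3) and 118 ± 5.91 CPM in the WDR11OE tumors (SD, n = 4), with a log2 fold change of 0.60 (SE 0.076, adjusted p 0.00157). Pes1 was at 0.36 (SE 0.14, adjusted p 0.0989) and Bop1 at -0.14 (SE 0.15, adjusted p 0.525). Ebna1bp2, Noc3l and the GTPase Gnl2 rose, at 0.55 (SE 0.10, adjusted p 0.00591), 0.53 (SE 0.084, adjusted p 0.00360) and 0.42 (SE 0.090, adjusted p 0.0111). Nop2, a methyltransferase of the large subunit RNA, Nop16 and Rrp1b did not pass, at 0.012, -0.14 and -0.022. Rrp1b was the steadiest of the 47 genes within both groups, with 98.05 ± 1.88 CPM in the control tumors (SD, n = 3) and 96.6 ± 1.60 CPM in the WDR11OE tumors (SD, n = 4).

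Between the tumors of one group the 47 genes tended to move together. Control tumor 3 was the highest of the 3 control tumors in 43 of the 47 genes (91.5%), beside 38.1% of all genes tested. WDR11OE tumor 4 was the lowest of its group in 31 genes (66%), beside 31.7% of all genes, and WDR11OE tumor 2 was the highest in 25 (53.2%, beside 23.4%). Relative to each gene's mean over the controls, the median log2 level of the 47 genes was -0.12, -0.078 and 0.17 in control tumors 1 to 3 and 0.30, 0.30, 0.18 and 0.18 in WDR11OE tumors 1 to 4, so that control tumor 3 was level with WDR11OE tumors 3 and 4 in this median. No WDR11OE tumor stood apart by Dixon's criterion in any of the 47 genes. All 26 members that passed the test had groups that do not overlap, and of the 21 others, Polr1a and Ubtf were lower and Heatr1 and Utp20 higher in every WDR11OE tumor.

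**Figure D4:**
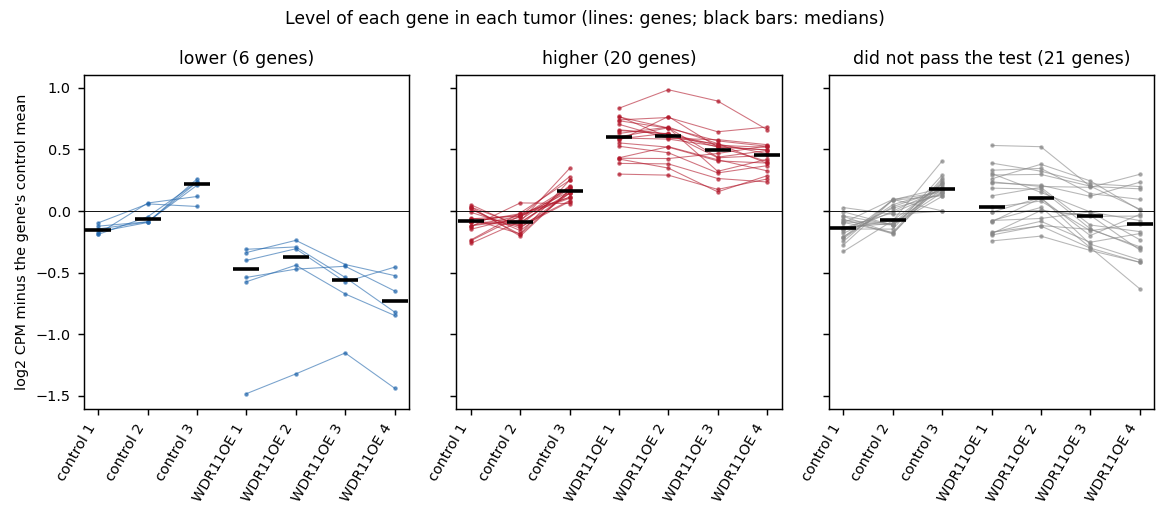
Log2 CPM of each gene minus its mean over the 3 control tumors (vertical axis), in control tumors 1 to 3 and WDR11OE tumors 1 to 4, for the 6 lower, the 20 higher and the 21 other genes. Colored lines join the values of 1 gene and mark no order of the tumors, and black bars are medians. Control tumor 3 lies above the other control tumors in nearly all genes, and the lowest line on the left is Tcof1.

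Other cell types and the cell cycle varied beside these genes. Summed neuron markers ran from 51.1 to 289 CPM in the control tumors and from 11.4 to 593 CPM in the WDR11OE tumors, and none of the 8 markers passed the test. They were lowest among the controls in tumor 3, the highest control tumor in 43 of the 47 genes, and highest of all in WDR11OE tumor 4, the lowest of its group in 31 of the 47 genes but not in their median. With the neuron markers as a covariate 20 members were higher, the same 20 genes, and 9 were lower (42.6% and 19.1%, beside 22.7% and 19.9% of all genes in that fit). With the tumor highest in neuron markers left out of each group (control tumor 1 and WDR11OE tumor 4), 13 were higher and 7 lower (27.7% and 14.9%, beside 14% and 17.8% of all genes). Of 8 markers of cycling cells 5 were higher, among them Pcna at 0.79 and Top2a at 0.70, 0 were lower, and Mki67 was lowest at -0.30 without passing, with summed levels of 1973 to 2521 CPM against 2369 to 2822 CPM. With each tumor's GC trend removed, 2 of these 8 markers were higher, with Pcna at 0.58, and Mki67 was lower at -0.39 (adjusted p 0.0480), while Top2a, at 0.42, did not pass (adjusted p 0.0566). Astrocyte markers summed to 390.2 to 615 CPM against 173 to 776 CPM, oligodendrocyte markers to 114 to 323 CPM against 94.5 to 324 CPM, and microglia and macrophage markers to 121 to 201 CPM against 97.5 to 201 CPM, and none of these 19 markers passed. All 6 skeletal muscle markers were higher, from 1.04 to 1.92 CPM summed to 35.7 to 112 CPM, with Mb at 0 counts in the controls. Endothelial markers summed to 112 to 142 CPM against 86.4 to 95.8 CPM, with Cdh5 and Flt1 of 6 lower. Erythroid markers ranged from 98.9 to 1123 CPM against 23.6 to 378 CPM, and 0 of 5 passed. Granule neuron lineage markers summed to 46.2 to 53.7 CPM against 42.6 to 94.3 CPM with none of the 5 tested past the test, and the defining marker Atoh1 was at 0 in all 7 tumors. Except for the neuron markers, the part of these in the results was not tested.

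The direction of the 47 genes followed the base composition of their exons. Members that rose had a median exon GC content of 45.7% and members that fell one of 54.1%, with 51.7% in those that did not pass. Across the 47 genes, Spearman's rho of log2 fold change and GC content was -0.67, and across the 17125 genes with a GC value it was -0.34. These correlations are descriptions, since all points share the same 7 libraries. Of the 10 members under 45% GC, 8 were higher and 0 lower, where 37.2% of all genes of that class were higher. Of the 13 members from 45% to 50%, 8 were higher, beside 18.9% of all genes. Between 50% and 55%, 2 of 15 members were higher and 4 lower, beside 10.9% and 20% of all genes. At 55% or more, 2 of 9 were higher and 2 lower, beside 5.05% and 26.4%. Exon length had a weaker relation in the 47 genes, with a rho of -0.12.

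When the trend on GC content was removed from each tumor, 14 members were higher and 3 lower, all of them also called without the correction. This is 29.8% and 6.38% of the 47 genes, beside 13.4% and 14.1% of all genes in that fit, and the median log2 fold change of the members was 0.18. The 3 genes still lower were Tcof1 at -1.06 (adjusted p 0.00182), Gar1 at -0.54 (adjusted p 0.0182) and Mybbp1a at -0.40 (adjusted p 0.0337). Nhp2 and Nip7 had the highest corrected values, 0.72 and 0.70. Spearman's rho of the corrected log2 fold change and GC content was 0.002 across all genes and -0.33 across the 47 genes, so that a relation remained in these. The 9 members that lost their call in this fit were Bysl, Noc4l and Rrs1 of the lower ones, at -0.25, -0.25 and -0.35, and Ddx10, Gnl3, Nop14, Npm1, Pno1 and Utp15 of the higher ones, at 0.17 to 0.33. A GC trend of the libraries and one of the tumors cannot be told apart here, since library names of control and WDR11OE tumors form separate series.

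**Figure D5:**
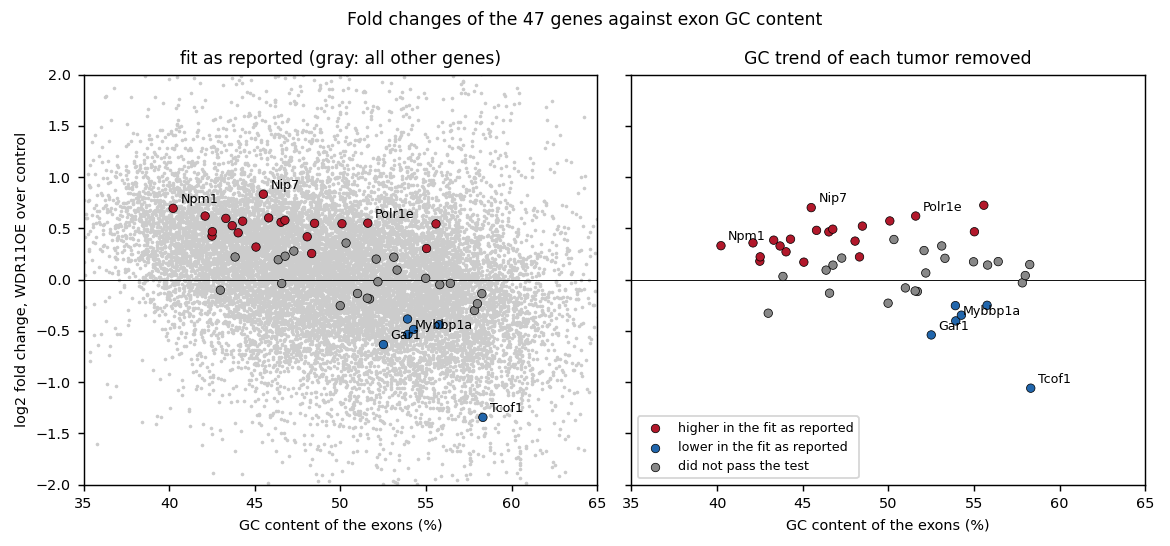
Log2 fold change of WDR11OE over control (vertical axis) against the GC content of the exons in percent (horizontal axis), before (left) and after (right) removal of each tumor's GC trend. Large points are the 47 genes, colored by their call in the fit as reported, and small gray points on the left are the other genes tested, of which those outside the axes are not shown. The higher genes lie mainly under 50% GC and the lower ones above 52%, and the slope is flatter on the right.

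Of these 47 genes, 10 passed the test in the fit and in each of 20 alternatives. They were Tcof1 and Gar1, which were lower, and Nop56, Wdr43, Wdr75, Tsr1, Wdr12, Ebna1bp2, Nip7 and Noc3l, which were higher. Another 11 members lost their call when a single tumor was left out, and for all 11 that was so without WDR11OE tumor 1. Their log2 fold changes without that tumor were -0.43 in Bysl, -0.49 in Noc4l and -0.58 in Rrs1, which were lower, and 0.44 in Polr1e, 0.49 in Nhp2, 0.53 in Nop10, 0.26 in Utp15, 0.20 in Nop14, 0.39 in Ddx10, 0.22 in Wdr74 and 0.34 in Gnl2, which were higher, at adjusted p from 0.0590 (Ddx10) to 0.214 (Nop14) in edgeR's test. The other tumors ended fewer of these calls when left out, 9 for WDR11OE tumor 2, 5 for WDR11OE tumor 3, 3 for WDR11OE tumor 4, and 6, 8 and 3 for control tumors 1 to 3. Each of the last 5 called members kept its call without any 1 tumor. Of these, Npm1, Gnl3 and Pno1 lost it with GC content removed, at 0.33, 0.27 and 0.22, and Nop58 and Mybbp1a with GC content and exon length removed, at 0.29 and -0.24. Mybbp1a also lost it with exon length alone removed, at -0.41 (adjusted p 0.0646), and Gnl3 without the tumors highest in neuron markers, at 0.39 (adjusted p 0.0576). No member that passed the test changed direction in any of the 20 alternatives.

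Among the other genes of the pathway, too, more were higher than lower. From a list of 130 further ribosome biogenesis genes, 125 were found and all were tested. Of these, 53 were higher (42.4%) and 14 lower (11.2%), beside 18.1% and 15.8% of all genes tested. Their median log2 fold change was 0.28, beside 0.085 for all genes tested. Small subunit factors had 22 higher and 3 lower of 40, large subunit factors 18 higher and 8 lower of 45, factors of precursor trimming (exosome and RNase MRP) 9 higher and 1 lower of 22, RNA polymerase I factors 3 higher and 0 lower of 8, and snoRNP assembly factors 1 higher and 2 lower of 10. By role the medians were not alike, since the other RNA polymerase I factors had a median log2 fold change of 0.36, beside -0.19 for the 7 members, and the other snoRNP factors one of 0.056, beside 0.38 for the 8 members. These differences were not tested. The largest rise was in Ftsj3, a methyltransferase of precursor processing, which was at 142, 139 and 181 CPM in control tumors 1 to 3 and 356, 333, 302 and 294 CPM in WDR11OE tumors 1 to 4. All WDR11OE tumors were above all controls, by a log2 fold change of 1.06 (SE 0.12, adjusted p 0.00131), which the GC correction left at 1.06. Next came Taf1d, a subunit of the selectivity factor of RNA polymerase I, at 0.91, the GTPase Gtpbp4 at 0.91, and Rpp40 of RNase P and MRP at 0.86. The lowest were the helicase Ddx51 at -0.96, Pelp1 at -0.84, the small subunit factor Nol6 at -0.84 and the helicase Dhx37 at -0.73. Ddx51 was at 47.1, 45.5 and 50.6 CPM in control tumors 1 to 3 and 23.2, 24.5, 28.1 and 22.3 CPM in WDR11OE tumors 1 to 4, and its groups lay far apart (log2 fold change -0.96, SE 0.096, adjusted p 0.00105).

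Promoter sequence was found for 40 of the members, in 48 windows like those printed. The E-box CACGTG, which reads the same on both strands, was present in 9 of the 40 genes (22.5%), beside 8.1% of all 27025 genes with a window. These 9 were Mybbp1a, which fell, Pno1, Tsr1 and Wdr43, which rose, and Imp4, Nop2, Pes1, Rrn3 and Utp20, which did not pass. With the base of the start site as 0, the motif began at 17 in Wdr43, 24 in Tsr1, 40 in Mybbp1a, and -215 and -48 in Rrn3. Thus 1 of 4 lower genes, 3 of 18 higher genes and 5 of 18 others held it, and with so few genes these shares cannot be ranked. The ETS motif CCGGAAG, on either strand, was in 14 genes (35%, beside 9.9% of all genes), among them 8 of 18 higher genes and 1 of 4 lower ones. A GC box GGGCGG on either strand was in 31 genes (77.5%, beside 38.2%), and TATAAA in 2 (5.0%, beside 15.7%). The GC content of these windows had a median of 58.2%, beside 52.7% for all 32851 windows, and GGGCGG holds only G and C. A match says that these letters are in the window and nothing about binding.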

How the data were processed

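For these files the authors used the StrongArm pipeline to map reads to NCBIM37.67 (mm9), obtained raw counts per gene from HT-seq with GENCODE gene models, and deposited them for each tumor. The submitters' processing notes also name CASAVA 1.7, STAR and BWA. The deposited counts of 7 tumors (32116095 to 87141305 per library) were read in R 4.3.3. Genes kept by filterByExpr of edgeR 4.0.16 (17389 of 34592) were scaled by TMM and tested by its two-sided quasi-likelihood test with Benjamini-Hochberg adjustment. Single values were compared by exact permutation over 35 splits. CPM uses the TMM factors, and CPM per kb divides by exon length in GENCODE vM1, as does GC content. Alternatives were limma 3.58.1 with voom (the method of the study), DESeq2 1.42.0, other scalings and filters, loess removal of GC content or length, an adjusted p under 0.01, and leaving out each tumor, and, chosen after seeing the data, 2 settings on neuron markers. The code was tested on simulated data. Within groups no tumors were duplicates (chi-square per degree of freedom at least 22.6).

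The members and lists were chosen with earlier results of these data known. Each role group names per tumor the members with the lowest and highest log2 fold change and the highest mean CPM per kb, and the other pathway genes named are the 4 lowest and 4 highest past the test. Counting error covers reads only, since reads carry no molecular identifiers.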

Additional observations from a re-analysis of the deposited data

How the results depend on the processing

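No paired analysis was possible because the labels give the tumors of both groups no shared replicate numbers. The cause of the changes below was not tested. With GC content removed 3 members were lower (6.38%, beside 14.1% of all genes). With GC content and exon length removed 12 were higher and 3 lower (25.5% and 6.38%, beside 11.9% and 11.3% of all genes). In that fit 34 and 9 of the other pathway genes were higher and lower, and 2044 and 1928 of all 17125 genes tested. At an adjusted p under 0.01, 13 members were higher and 2 lower, 35 and 6 of the other pathway genes, and 1549 and 1552 of all genes. Without a filter 2093 genes in all were higher. With the tumor highest in neuron markers left out of each group 13 members were higher (27.7%, beside 14% of all genes). Scaling alone left the members' counts at 16 to 22 higher and 5 to 7 lower, and moved the median of all genes within 0.037 and 0.12.

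Leaving out 1 tumor at a time gave 12 to 24 higher and 3 to 6 lower members, 32 to 57 higher and 8 to 14 lower of the other pathway genes, 1559 to 2985 higher and 2011 to 2868 lower of all genes, and a members' median of 0.14 to 0.33. Without WDR11OE tumor 1 or without WDR11OE tumor 2, 12 members were higher (25.5%, beside 9.11% and 9.65% of all genes). Without control tumor 3, without WDR11OE tumor 1 or without WDR11OE tumor 3, 3 were lower. In these fits that is 6.38% of the members, beside 11.7%, 11.8% and 13.1% of all genes.

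Changes of sign occurred in 11 members, none of which passed the test in the fit as reported. With GC content removed, the log2 fold changes were 0.15 in Bop1, 0.175 in Fbl, 0.14 in Rrp12, 0.064 in Rrp1b and 0.039 in Rrp9. With GC content and exon length removed they were 0.068 in Bop1, 0.084 in Polr1a, 0.22 in Rrp12, 0.31 in Rrp1b (adjusted p 0.0391) and 0.17 in Ubtf. With exon length removed they were 0.077 in Ncl, -0.022 in Nop2, 0.024 in Rrp12 and 0.15 in Rrp1b, and with the upper quartile 0.011 in Rrp1b. Nop2 was at -0.031 with DESeq2 and with its size factors in edgeR, -0.033 without the 100 highest genes in the scaling, -0.043 without a filter, -0.051 with the neuron covariate and -0.053 (-0.0535) without the tumors highest in neuron markers. Over the fits without 1 tumor, Fbl ran from -0.19 to 0.19, Imp4 from -0.018 to 0.18, Ncl from -0.195 to 0.032, Nop2 from -0.096 to 0.080 and Rrn3 from -0.13 to 0.038. Of all comparisons of a member with an alternative, 796 kept direction and call, 98 lost the call, 14 gained it and 32 changed sign. What depth limits in these genes was not tested, and the lowest of them had a mean of 6.97 CPM per kb.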
